A study of Homo sapiens with 6 samples.

Results

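The interleukin-1 (IL1) family in OVCAR8 ovarian cancer cells was described through 10 genes, of the 38637 listed in the deposited expression table, chosen by name: the ligands IL1A, IL1B, IL18 and IL33, the receptor antagonist IL1RN, the receptors IL1R1, IL1RAP, IL1R2 and IL1RL1, and the receptor-associated kinase IRAK2. All 10 were found in the table. Polyadenylated RNA was sequenced from OVCAR8, an established human ovarian cancer line labelled as wild type, after 72 h with the vehicle DMSO (3 samples) or with 2 nM pladienolide B (3 samples), a small molecule that binds the SF3B1 subunit of the spliceosome and inhibits splicing. Both groups come from this single cell line, and the labels do not say whether the 3 samples of a group were separate cultures. The p-values therefore rest on spread between these samples, which may be technical. The limma test also draws the spread of each gene toward that of other genes of similar level.

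Cytokines of the IL1 family signal through paired receptor chains. IL1A and IL1B bind IL1R1, which then recruits the accessory chain IL1RAP, and the assembled receptor passes the signal through the adaptor MYD88 and IRAK kinases to NF-kB. IL1RN occupies IL1R1 without signalling, and IL1R2 captures IL1 without a signalling domain, so both oppose the cytokine. IL1B and IL18 are made as inactive precursors that caspase-1 cleaves in inflammasomes, whereas IL33, which binds IL1RL1, and IL1A can act as released danger signals. Transcript levels do not show how much cytokine was cleaved or secreted.

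Between 22621338 and 26130882 reads fell on genes in each sample, and between 22005 and 22987 genes had a read. DMSO replicate 2 stood apart from the other DMSO samples: the chi-square of gene counts per degree of freedom was 7.31 and 7.24 against replicates 1 and 3, and 1.98 between those. Of 12 epithelial and ovarian carcinoma markers, vimentin (VIM) was the most abundant. The keratins KRT8, KRT18 and KRT7, mesothelin (MSLN), CDH2 and PAX8 were also abundant. EPCAM had 404 to 509 reads, while MUC16, WT1, KRT19 and CDH1 had between 8 and 40 reads in every sample. With pladienolide B, limma called 3 of the 12 higher and 4 lower (58.3%, beside 47.6% of all genes tested). Of 14 leukocyte markers 12 were too low to test. CD3E and TYROBP had 0 reads in every sample, and PTPRC, CD3D, MS4A1, LYZ, FCGR3A, AIF1 and NKG7 had at most 3. CD79A had 1 to 5 reads, CD14 had 5 to 10 in the controls and 9 to 19 after treatment, and CSF1R had 7 to 17. CD68, which other cell types also express, had 1155 to 1508 reads and rose, and ITGAM, with 11 to 34 reads, fell. The summed level of the 13 markers other than CD68 was between 39.2 and 61.7 adjusted reads in DMSO samples and between 39.6 and 46.8 in treated samples, and its part in the results was not tested.

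Of the 10 genes, 6 belong to gene clusters on chromosome 2 (GRCh38). The receptor cluster covers 461 kb and holds, in order, IL1R2 (chr2:101991805-102028544), IL1R1 (chr2:102069638-102179874), IL1RL2, IL1RL1 (chr2:102311529-102352367), IL18R1 and IL18RAP, all on the plus strand. The ligand cluster covers 360 kb, with IL1A (chr2:112773925-112784493) and IL1B (chr2:112829751-112836843) on the minus strand at one end and IL1RN (chr2:113099365-113134016) on the plus strand at the other. IL1A and IL1B are 45.3 kb apart. The remaining genes lie elsewhere: IL18 at chr11:112143251-112164104 and IL33 at chr9:6214591-6257983 among the ligands, and IL1RAP at chr3:190514085-190659750 and IRAK2 at chr3:10164919-10243745. Each of the 10 positions overlaps the gene of that name in the GENCODE 44 annotation of GRCh38.

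IL1A and IL1B are neighbours that limma called higher with pladienolide B, IL1A by little, so the genomic sequences just before their starts are shown. They are from the RefSeq promoter table (GRCh38.p14), 5′ to 3′ on the minus strand, and end at the farthest annotated start: chr2:112784494-112784743 for IL1A (250 bases) and chr2:112836844-112837029 for IL1B (186 bases). Capitals mark matches on either strand to TATAAA (the TATA box), TGANTCA (AP-1 sites) or TTGCNNAA (C/EBP sites), which do not overlap each other here.
IL1A: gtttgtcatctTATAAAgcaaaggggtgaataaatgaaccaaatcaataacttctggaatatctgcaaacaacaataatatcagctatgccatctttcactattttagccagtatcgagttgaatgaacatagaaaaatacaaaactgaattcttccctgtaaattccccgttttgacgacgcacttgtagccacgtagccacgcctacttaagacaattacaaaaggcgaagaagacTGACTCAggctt
IL1B: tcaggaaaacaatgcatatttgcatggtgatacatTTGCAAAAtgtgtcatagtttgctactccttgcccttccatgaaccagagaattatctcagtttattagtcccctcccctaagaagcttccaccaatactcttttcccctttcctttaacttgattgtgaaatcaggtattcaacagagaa
IL1A has 2 starts in RefSeq. Counted from the farther start, used here, its TGANTCA match began 12 bases and its TATAAA match 239 bases before it. The window before the other start held TGANTCA matches 105 and 55 bases before it and no TATAAA, with 42.0% G and C and 8 CpG. The TTGCNNAA match of IL1B began 215 bases before its single RefSeq start. Over all 35116 promoters in the table, windows of 250 bases held TATAAA in 10.7%, TGANTCA in 6.57% and TTGCNNAA in 9.05%. The full IL1B window of 250 bases, of which 186 are shown, was 40.0% G and C with 1 CpG. The median over all promoters was 58.0% and 11 CpG. The IL1A window shown was 37.6% G and C with 7 CpG. By contrast the single windows of IL1RAP and IRAK2 were 74.8% and 72.0% G and C, and the 4 starts of IL1R1 ranged from 39.6% to 76.8%. A match describes letters in the window and not binding.

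IL1B, encoding the secreted inflammatory cytokine IL-1β, had the largest change among the 6 genes with enough reads to be tested, IL1R1 was the other of these to change by at least 2-fold, and IL1RAP fell. The values are the reads that the authors adjusted to a common library size, called adjusted reads here, and the fold changes are on the scale of log2(adjusted reads + 1). Of the 10 genes, 6 had enough reads to be tested, and all 6 passed an adjusted p of 0.05 in limma fitted over 16178 genes, where 47.6% of genes passed. Higher with pladienolide B were 4 of the 6 (22.4% of all genes tested), and lower were 2 of the 6 (25.2% of all genes tested). In 5 of the 6 the samples of the groups did not overlap, as in 55.3% of all genes tested. Without pladienolide B replicate 2, or in limma without a variance trend, 3 of the 6 passed: IL1B, IL1R1 and IL1RAP. With so many genes changed, passing the test does not set these genes apart, and the sizes of the changes carry more of the description. The median size of the log2 fold change over all genes tested was 0.23. In these bulk samples, a change in the share of cells that carry a transcript and a change in its amount per cell cannot be told apart. Reads were counted per gene, so spliced and unspliced transcripts cannot be told apart either.

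**Figure D1:**
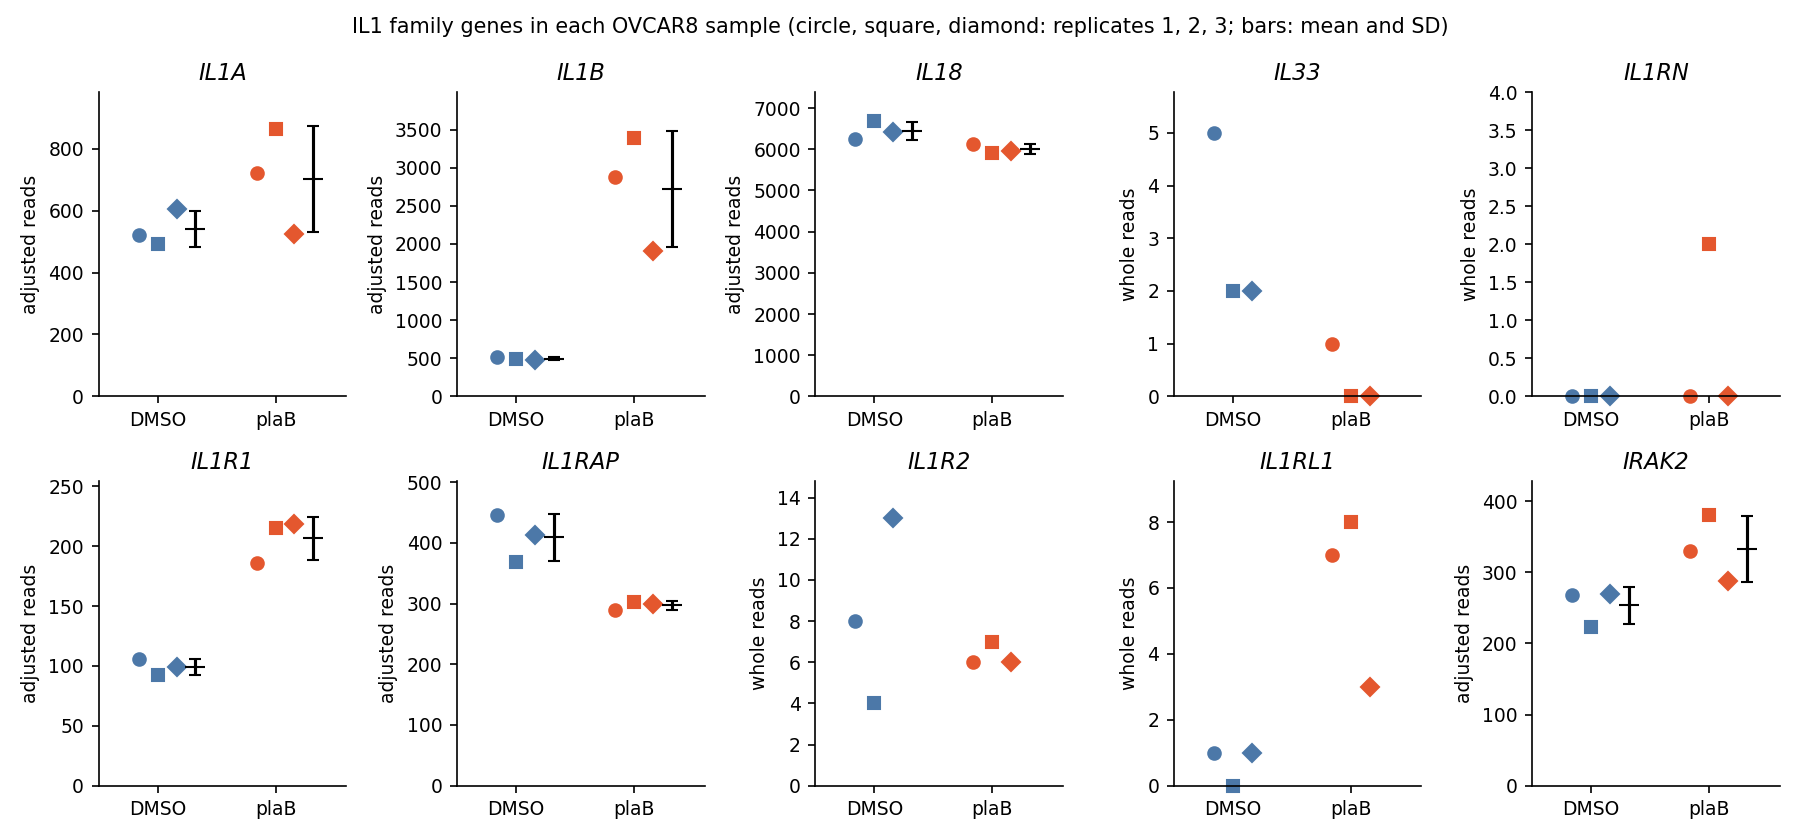
Each panel shows 1 gene in the 3 DMSO and 3 pladienolide B (plaB) samples, as adjusted reads for the 6 tested genes (with mean and SD) and as whole reads for the 4 genes with few reads. All 3 pladienolide B samples lie above all DMSO samples for IL1B, IL1R1 and IRAK2 and below them for IL1RAP and IL18, while IL1A overlaps.

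Among the ligands, IL1B had 510.5, 493.9 and 477.1 adjusted reads in DMSO replicates 1 to 3 and 2872, 3394 and 1902 in pladienolide B replicates 1 to 3. The lowest pladienolide B sample was far above the highest DMSO sample. The mean went from 494 ± 16.7 to 2723 ± 757 (SD, n = 3 each), a log2 fold change of 2.42 (SE 0.13, 95% interval 2.14 to 2.70), or 5.35-fold (limma, adjusted p = 3.4e-10). This SE and interval use a spread that limma draws toward that of other genes. They are narrower than the spread of IL1B alone would give. Only 19 of the 16178 genes tested, IL1B included, had a log2 fold change this high or higher. The call for IL1B was the same under all 13 alternative settings, with values from 2.24 to 2.66. In limma without the variance trend its adjusted p was 0.0015.

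The size of the IL1B response varied between the treated samples. The coefficient of variation was 27.8% over the pladienolide B samples and 3.38% over the DMSO samples. Of the 12080 genes with a mean of at least 100 adjusted reads, 0.199% varied as much as IL1B in pladienolide B, where the median was 4.4%. In DMSO, 71.7% varied as much as IL1B.

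IL1A, which encodes IL-1α, a form of the cytokine that can signal from the cell surface or on release from dying cells, had 522.3, 492.0 and 604.7 adjusted reads in DMSO and 720.0, 864.8 and 524.2 in pladienolide B. Replicate 3 of pladienolide B lay within the DMSO range. The log2 fold change was 0.36 (SE 0.13, 95% interval 0.09 to 0.63; limma, adjusted p = 0.030). The call was lost in 6 of 13 alternatives, including DESeq2 (adjusted p = 0.15) and the fits without DMSO replicate 1 (0.064), DMSO replicate 2 (0.068), pladienolide B replicate 1 (0.094) or pladienolide B replicate 2 (0.23). Without pladienolide B replicate 2 the log2 fold change was 0.19, and without replicate 3 it was 0.55.

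The neighbouring ligands thus moved by unequal amounts. The ratio of IL1B to IL1A was 0.977, 1.0 and 0.789 in the DMSO samples and 3.98, 3.92 and 3.62 in the pladienolide B samples, so the treated samples agreed more closely in this ratio than in either gene. The mean log2 ratio went from -0.12 ± 0.19 to 1.94 ± 0.07 (SD, n = 3 each), a difference of 2.06. The exact permutation test (two-sided) gave p = 0.10, which is the smallest p that 3 against 3 samples can give. IL1B, IL1A and IRAK2 were each highest in replicate 2 and lowest in replicate 3 among the pladienolide B samples, an order shared by 17.4% of all genes tested.

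IL18, a cytokine that acts on T and NK cells, was the most abundant of the 10 genes in every sample. It had 6252, 6679 and 6418 adjusted reads in DMSO and 6135, 5907 and 5960 in pladienolide B. Every treated sample lay below the controls, although only narrowly. The log2 fold change was -0.10 (SE 0.04, 95% interval -0.19 to -0.02; limma, adjusted p = 0.046), a fall to 93.1% of the DMSO level, and 75.6% of all genes tested had a change of at least this size. The call was lost in 11 of 13 alternatives, where the adjusted p reached 0.14, among them edgeR (0.055), DESeq2 (0.084), the fit without DMSO replicate 2 (0.069) and the fit without any other single sample except DMSO replicate 1.

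IL33, a nuclear alarmin, had 5, 2 and 2 whole reads in DMSO and 1, 0 and 0 in pladienolide B. All counts were too low for the test. Over each group 9 reads stood against 1, a ratio per read on genes of 0.122 with an exact 95% counting interval of 0.00279 to 0.884, which covers counting error only. Without a filter on low values the log2 fold change was -1.54 by limma (adjusted p = 0.042) and -2.68 by edgeR (adjusted p = 0.17). A lncRNA on the opposite strand, LOC107987046, overlaps IL33 in the table and had 0 to 6 reads per sample.

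Set on a scale per length, the family was dominated by IL18 before treatment and less so after it. Adjusted reads were divided by the exonic length of 1 canonical GENCODE transcript per gene, 1115 bases for IL18, 1507 for IL1B and 2017 for IL1A. IL18 then made up 90.6% ± 0.548 (SD, n = 3) of the reads per kb of the 4 ligands in DMSO and 71.7% ± 5.76 in pladienolide B. IL1B made up 5.14% ± 0.276 and 23.7% ± 4.97. IL1A made up 4.20% ± 0.494 and 4.59% ± 0.795, and IL33 was below 0.03% in every sample. The summed level of the 4 ligands was 6380 ± 178 reads per kb in DMSO and 7540 ± 590 in pladienolide B.

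**Figure D2:**
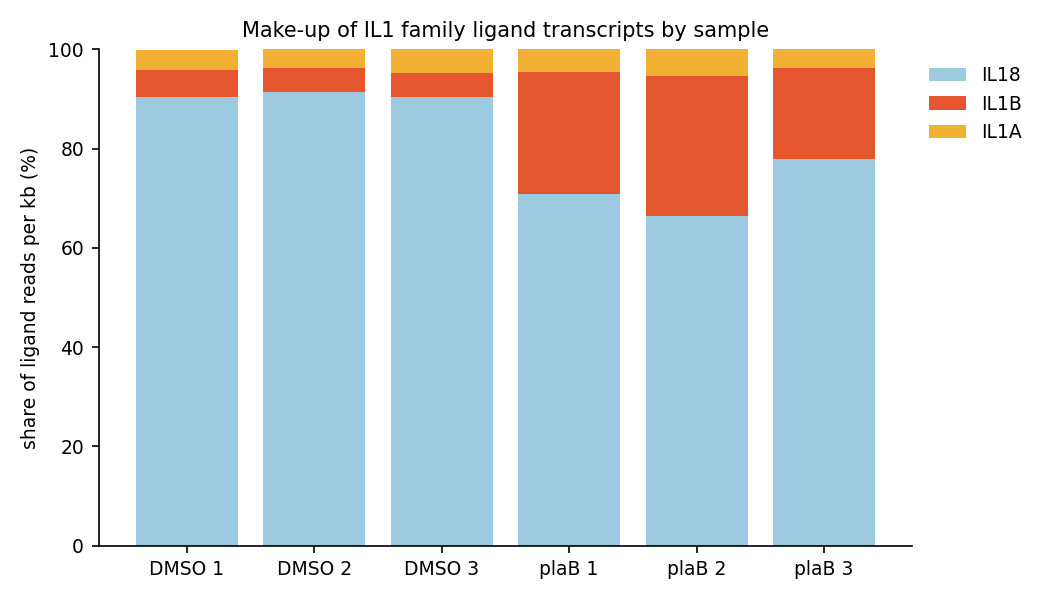
Bars show the share of IL18, IL1B and IL1A in the adjusted reads per kb of the ligands in each sample (percent, IL33 too small to see). The IL1B share was between 4.97% and 5.46% in DMSO and between 18.4% and 28.2% with the inhibitor.

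The antagonist and the decoy receptor had few or no reads. IL1RN, which blocks IL1R1, had 0 reads in all 3 DMSO samples and in pladienolide B replicates 1 and 3, and 2 reads in pladienolide B replicate 2. A count of 0 allows up to 3 reads per sample, so no fold change and no ratio of IL1B to IL1RN can be given. IL1R2, the decoy receptor, had 8, 4 and 13 reads in DMSO and 6, 7 and 6 in pladienolide B. These counts overlap, and the ratio of 0.838 had a counting interval of 0.436 to 1.58. Without a filter on low values neither passed the test: IL1RN had an adjusted p of 0.52 by limma and 0.40 by edgeR, and IL1R2 had 0.87 and 0.78.

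Both chains of the signalling IL1 receptor were detected, and they changed in opposite directions. IL1R1, the ligand-binding chain, had 105.6, 92.76 and 99.24 adjusted reads in DMSO and 185.8, 215.4 and 218.5 in pladienolide B. The groups were well apart, and replicate 1 was the lowest of the treated samples. The log2 fold change was 1.05 (SE 0.13, 95% interval 0.78 to 1.32; limma, adjusted p = 3.6e-06), or 2.07-fold, and 1.87% of all genes tested rose this much or more.

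IL1RAP, the accessory chain that the IL1, IL33 and IL36 receptors share, had 445.8, 369.0 and 414.0 adjusted reads in DMSO and 288.8, 303.1 and 299.6 in pladienolide B. Every treated sample lay below every control, and the treated samples differed little among themselves. The log2 fold change was -0.46 (SE 0.09, 95% interval -0.65 to -0.27; limma, adjusted p = 0.00045), so 72.8% of the DMSO level remained, and 12.5% of all genes tested fell this much or more. The calls for IL1R1 and IL1RAP were the same under all 13 alternatives.

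IL1RL1, the receptor of IL33, had 1, 0 and 1 reads in DMSO and 7, 8 and 3 in pladienolide B. All treated samples had more reads than any control, although every count was small. In sum 2 reads stood against 18, a ratio of 9.92 with a counting interval of 2.37 to 88.1. IL1RL1 did not pass the filter on low values, and without that filter its adjusted p was 0.0076 by limma and 0.019 by edgeR. IL1RAPL1, a receptor of this family known from neurons, was equally low, with 0 to 1 reads per DMSO sample and 5 to 12 per pladienolide B sample, and was chosen for mention after its counts were seen.

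IRAK2, a kinase of the signalling complex that sustains NF-kB activation, had 267.6, 223.8 and 269.6 adjusted reads in DMSO and 329.4, 381.3 and 287.6 in pladienolide B. The lowest treated sample lay just above the highest control. The log2 fold change was 0.39 (SE 0.11, 95% interval 0.15 to 0.62; limma, adjusted p = 0.0091). The call was lost without pladienolide B replicate 2 (adjusted p = 0.069) and in limma without a variance trend (adjusted p = 0.061).

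**Figure D3:**
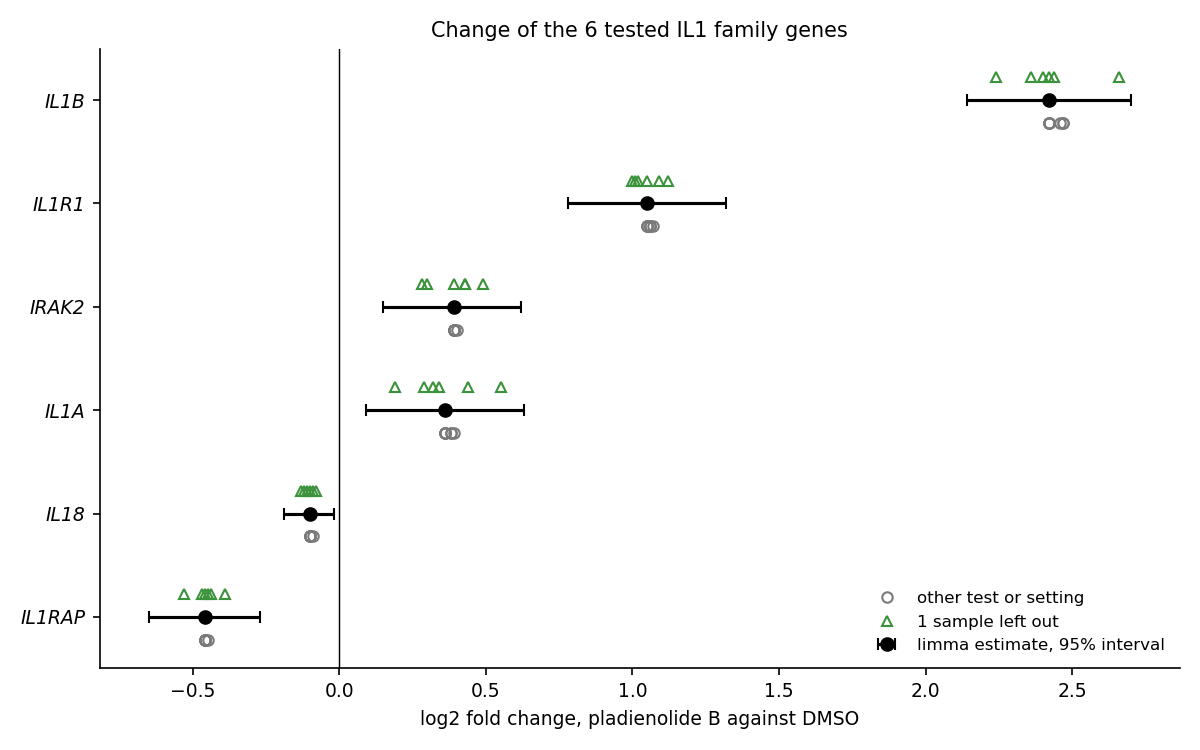
Points show the log2 fold change (pladienolide B against DMSO) of the 6 tested genes with its 95% interval, triangles the value with 1 sample left out, and open circles the value under the other tests and settings. No value crosses 0, and leaving out a sample moved IL1A most relative to its size, from 0.19 to 0.55.

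On the scale per kb of the canonical transcript, the order of levels in DMSO was IL18 (5780 ± 193), IL1B (328 ± 11.1), IL1A (268 ± 28.9), IL1RAP (86.3 ± 8.13), IRAK2 (73.9 ± 7.54), IL1R1 (19.1 ± 1.24) and IL1R2 (5.46 ± 2.87; SD, n = 3), with IL33 at 1.07, IL1RL1 at 0.316 and IL1RN listed at 0. IL1RAP and IRAK2 overlapped between samples. In pladienolide B the order was IL18 (5380 ± 107), IL1B (1810 ± 502), IL1A (349 ± 84.8), IRAK2 (97.0 ± 13.7), IL1RAP (62.6 ± 1.57), IL1R1 (39.9 ± 3.48) and IL1R2 (4.50 ± 0.525), with IL1RL1 at 3.13 ± 1.44, its highest sample overlapping those of IL1R2. IRAK2 and IL1RAP thus changed places, and the levels of IL1RAP and IL1R1 came closer. These levels take 1 transcript length per gene and would shift with another isoform.

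The other genes of the chromosome 2 clusters mostly had few reads. Of 9 protein-coding genes in the ligand cluster, IL1A and IL1B were the only ones to reach 10 reads in any sample, and IL37 and the IL36 genes had at most 7. Just outside it, CKAP2L next to IL1A had a log2 fold change of -0.34 (limma, adjusted p = 4.6e-05), SLC20A1 one of 0.81 (adjusted p = 1.1e-09), and PSD4 and PAX8 beyond IL1RN values of -0.04 and 0.08 (adjusted p = 0.80 and 0.16). In the receptor cluster, IL1RL2, the IL36 receptor, was the most abundant gene, with 396 ± 30.3 and 482 ± 25.2 adjusted reads (log2 fold change 0.28, limma, adjusted p = 0.0086). IL18R1, a chain of the IL18 receptor, had 10 to 25 reads (log2 fold change 0.36, adjusted p = 0.44), and IL18RAP, the other chain, had 0 reads in every sample. These neighbours were named for their positions and not by a rule on their values.

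The wider IL1 pathway was described with 6 gene lists of 93 genes, of which 74 could be tested. Of these, 41 passed, 29 higher and 12 lower. This is 55.4%, beside 47.6% of all genes tested (22.4% higher and 25.2% lower). Their log2 fold changes had a median of 0.14, against -0.0042 over all genes tested. The 74 include CSF2, CSF3, MMP3 and SAA1, which could be tested only through their higher reads with pladienolide B. Without these, 38 of 70 passed (54.3%), 26 higher and 12 lower, with a median of 0.13.

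Ligands and receptors outside the 10 genes added little. Of 7 further ligands and antagonists only IL18BP, the soluble inhibitor of IL18, was testable, and it did not pass (log2 fold change 0.16, limma, adjusted p = 0.34). Of 6 further receptors 3 were testable, and IL1RL2 passed, as given above. SIGIRR, an inhibitory receptor, had a log2 fold change of -0.02 (adjusted p = 0.90).

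Of 17 adaptors and kinases, all testable, 4 rose and 3 fell (41.2% called, beside 47.6% of all genes), with a median of 0.04. The scaffold SQSTM1 rose most, from 18820 ± 1170 to 28310 ± 1900 adjusted reads (SD, n = 3 each; log2 fold change 0.59, limma, adjusted p = 1.2e-07), and was the only one past the size of 0.58 set for naming. MYD88, the adaptor of the receptor complex, rose by 0.48 on the log2 scale (limma, adjusted p = 5.0e-06). MAP3K7, the kinase TAK1, fell by 0.36 (adjusted p = 2.2e-05), and its partner TAB3 fell by 0.25 (adjusted p = 0.0032). The related kinases IRAK1, IRAK3 and IRAK4 did not pass, with log2 fold changes of 0.00, 0.09 and -0.15.

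Of 13 IKK and NF-kB genes 5 rose and 1 fell (46.2% called, beside 47.6% of all genes), with a median of 0.06, and none reached 0.58 in size. Those that rose were IKBKG, RELA, the inhibitors NFKBIB and NFKBIE, and the feedback deubiquitinase TNFAIP3, by 0.23 to 0.53 on the log2 scale, and IKBKB fell by 0.17. NFKBIA, the inhibitor that NF-kB itself induces, had a value of -0.06 (limma, adjusted p = 0.43). TNFAIP3 was the furthest up, at 0.53 (adjusted p = 0.00022).

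Of 20 genes for processing and release of the cytokines 16 were testable. Of these 5 rose and 7 fell, which is 75.0% called, beside 47.6% of all genes tested (22.4% higher and 25.2% lower). The median was 0.12. CASP1, the caspase that cleaves IL1B and IL18, was low and did not pass, with 73.8 ± 13.9 and 79.6 ± 11.4 adjusted reads (log2 fold change 0.12, 95% interval -0.27 to 0.50; limma, adjusted p = 0.64). PYCARD, the ASC adaptor of inflammasomes, had 0 to 2 reads per sample, and AIM2 had 0. NLRP3, an inflammasome sensor, rose from 175 ± 19.6 to 285 ± 19.5 adjusted reads (log2 fold change 0.71, adjusted p = 5.9e-05).

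Transcripts of GSDMD, which encodes a pore-forming protein, fell from 1769 ± 34.8 to 1026 ± 52.5 adjusted reads (SD, n = 3 each; log2 fold change -0.79, limma, adjusted p = 4.9e-09). Those of GSDME fell by 0.38 on the log2 scale (limma, adjusted p = 6.2e-05). CAST, the calpain inhibitor, fell by 0.61 (adjusted p = 1.6e-09), and the calpain genes CAPN1, CAPN2 and CAPNS1, whose proteases cleave the IL1A precursor, had log2 fold changes of -0.26, -0.26 and -0.42 (adjusted p = 4.5e-05, 4.3e-05 and 2.0e-07). The list thus held changes in both directions, with transcripts of the sensor NLRP3 higher and those of both gasdermins lower.

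Of 30 genes known to be induced by IL1 24 were testable, of which 14 rose and 1, LIF, fell. This is 62.5% called, beside 47.6% of all genes tested (22.4% higher and 25.2% lower), and the median was 0.40. Of the 24, CSF2, CSF3, MMP3 and SAA1 stayed under 10 adjusted reads in every DMSO sample and so were tested only through their higher reads with pladienolide B. Without these 4, 11 of 20 rose and 1 fell, with a median of 0.36. These genes answer to many other signals as well. MMP1, an interstitial collagenase, rose from 38850 ± 2420 to 107600 ± 18000 adjusted reads (SD, n = 3 each; log2 fold change 1.46, limma, adjusted p = 8.6e-10), and CSF1, the macrophage growth factor, rose from 339 ± 26.5 to 693 ± 80.2 (1.02, adjusted p = 1.1e-07). The chemokines CXCL1, CXCL2, CXCL3, CXCL5 and CXCL8 all passed, with rises from 0.36 for CXCL2 to 1.02 for CXCL1. CXCL2 and CXCL5 passed narrowly (limma, adjusted p = 0.028 and 0.03). CXCL5 had 902 ± 52.8 adjusted reads without the inhibitor and 1236 ± 418 with it, and its lowest treated count lay under every control. The whole reads of CXCL2 and CXCL8 also overlapped between the groups, whereas those of CXCL1 and CXCL3 did not. Whether these chemokine calls hold under the alternative settings was not tested. CXCL8, a neutrophil chemokine, rose by 0.51 (adjusted p = 0.0016). IL6, PTGS2 and SOD2 did not pass, with log2 fold changes of -0.21, -0.03 and -0.24.

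CSF3, MMP3 and CSF2 had larger fitted changes on few reads. MMP3 had 0 to 1 reads per DMSO sample and 16 to 19 per pladienolide B sample, a ratio of 28.1 with a counting interval of 7.39 to 238. CSF3 had 0 to 6 and 15 to 35 reads, a ratio of 12.3 with an interval of 5.37 to 34.7. CSF2 had 1 to 9 and 17 to 22 reads, a ratio of 4.26 with an interval of 2.38 to 8.10. These genes had to differ to be tested, so their calls support nothing further. Their fitted log2 fold changes, 3.56, 3.57 and 2.14, depend on the pseudocount. That of CSF3 was 4.49 without DMSO replicate 1, the only control with reads of it, and that of CSF2 was 1.46 without DMSO replicate 3.

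**Figure D4:**
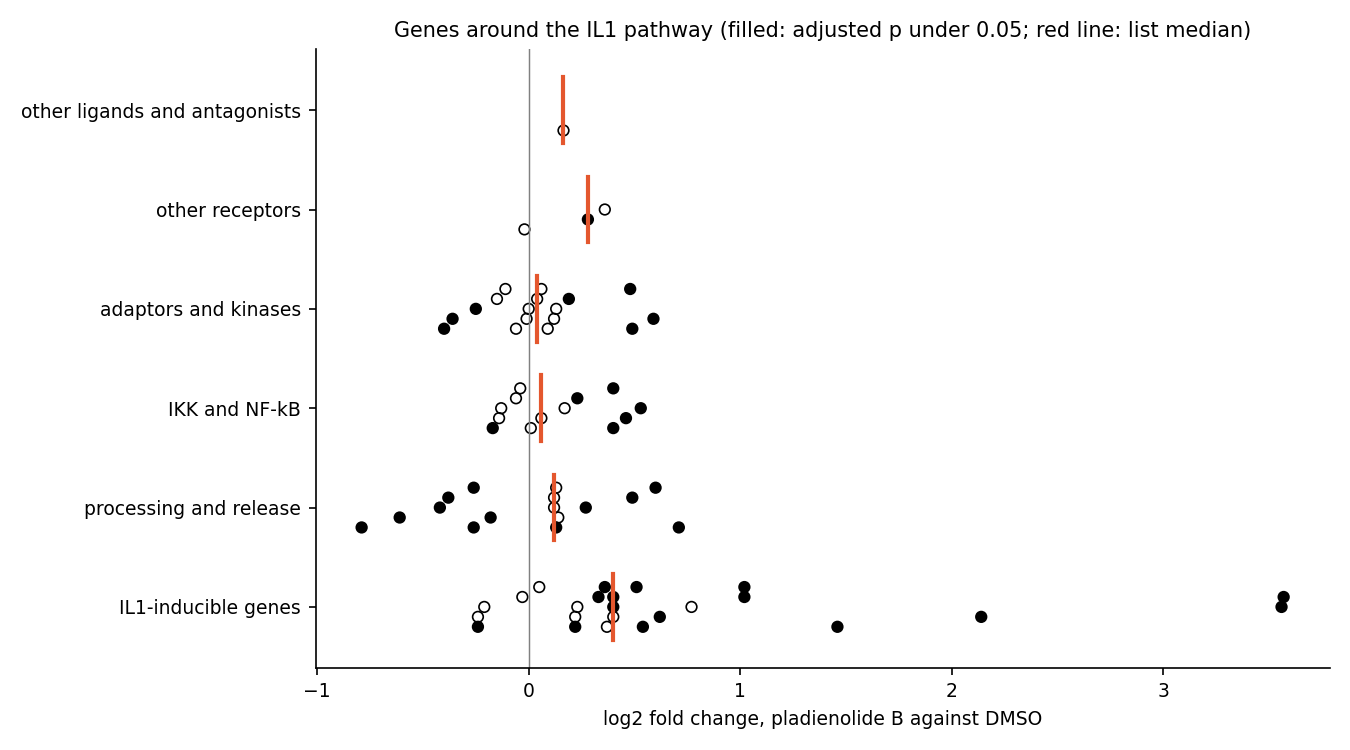
Each point is a tested gene of a pathway list, placed by its log2 fold change (pladienolide B against DMSO), filled where the adjusted p was under 0.05, with a red line at the list median. The list medians lie between 0.04 and 0.40, and the 3 highest points, at 2.14, 3.56 and 3.57, are CSF2, MMP3 and CSF3, which had few reads in DMSO.

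The genes whose adjusted reads followed IL1B most closely over the 6 samples were E2F3 (Pearson r = 0.9986), TOX4 (0.9985), METTL7B (0.9985), PRH1-PRR4 (0.9982) and NECAP2 (0.9981). The points share their libraries and fall into the 2 treatment groups, so r follows the treatment and the order of the treated samples. The changes of these genes were smaller than that of IL1B, with log2 fold changes of 0.15 to 0.86.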

How the data were processed

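Polyadenylated RNA of 6 OVCAR8 samples was sequenced. The paper states alignment to hg38 with HISAT2 and testing with DESeq2. The submitters' processing notes name HISAT2, HTSeq 0.12.4, DESeq2 and the build hg19, but the positions in the table are those of GRCh38. The strand setting of the counting is not given in the sources used here. The per-sample values that the authors deposited are a signal, namely reads per gene adjusted to a common library size. They were inverted as edgeR's quantile adjustment (common dispersion 0.0027), and 100% of the 96432 values of 10 or more came out as whole reads within 0.02. The authors also deposited log2 fold changes, p-values and q-values of their own comparison, which were not used.

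Adjusted values were tested with limma 3.58.1 with a variance trend on log2(value + 1), two-sided, after the filterByExpr function of edgeR 4.0.16 (minimum count 10, minimum total 15), with Benjamini-Hochberg adjustment over 16178 genes in R 4.3.3. The pseudocount of 1 understates the change of low genes. Alternatives were a pseudocount of 0.1, no filter, edgeR's quasi-likelihood test and DESeq2 1.42.0 on the recovered reads (edgeR called 7738 genes), a replicate block, and leaving out each sample; edgeR without a filter, limma without the trend, and leaving out genes under 10 adjusted reads in every sample of a group were added after seeing the data. The limma, edgeR and DESeq2 fits were checked on simulated counts in which far fewer genes changed than were called here. That check therefore does not cover data with so many changes. The permutation test and the counting intervals were not simulated. The ratio of IL1B to IL1A was tested by an exact permutation test. The planned ratio of IL1B to IL1RN was left out because IL1RN had no reads in 5 of 6 samples.

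All 10 members were named, and pathway genes were named by rule where the adjusted p was under 0.05 and the log2 fold change at least 0.58 in size, at most 5 per list, as were the 5 genes with the highest correlation with IL1B. A gene that this rule names is not reported here. Other pathway genes in the text were chosen after their values were seen. The members and lists were chosen with earlier results of these data known. Counting intervals are exact 95% intervals and cover counting error only. Depth was 22621338 to 26130882 reads on genes, and a gene needed about 10 reads in at least 3 samples to be tested. Promoter windows were matched by symbol for 9 of 10 members.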

Additional observations from a re-analysis of the deposited data

How the results depend on the processing

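The number of IL1 family genes called, 6 of 6 tested, was the least stable count. It was 3 without the variance trend in limma, a setting chosen after seeing the data, and 3 to 5 when a sample was left out, the lowest without pladienolide B replicate 2. Under the other alternatives it was 4 to 7, where 7 is out of 10 genes without a filter. IL1B, IL1R1 and IL1RAP passed in all 13 alternatives. Over the 16 single genes computed, 189 of 208 values kept their direction and side of the threshold, 0 reversed, and 19 no longer passed, of which 11 were for IL18, 6 for IL1A and 2 for IRAK2. Apart from the settings that leave out samples, the cause of these losses was not tested. The number of all genes changed, 7695, ranged from 6381 to 7855, and that of pathway genes called, 41, from 29 to 50, with 38 when genes under 10 adjusted reads in every sample of a group were left out, a setting also chosen after seeing the data.

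The labels do not say whether the replicate numbers pair the samples. Deviations from the group means of same-numbered samples had correlations of -0.018, -0.018 and 0.0026. No shared shift was seen, which does not settle whether the samples were paired. With the replicate number as a block, 5 IL1 family genes, 41 pathway genes and 7349 genes in all were called, and the difference in the log2 ratio of IL1B to IL1A was 2.06 (exact p = 0.25, the smallest that 3 pairs allow). That difference was 1.95 to 2.13 with a sample left out. Where a group is left with 2 samples, the fit takes the spread from all 5 samples. Depth limits IL33, IL1RN, IL1R2 and IL1RL1, each with at most 13 reads in a sample.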
